A study of Mus musculus with 16 samples.

Results

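Small nucleolar RNA (snoRNA) host genes are genes whose introns carry snoRNAs, and 8 of them were looked for by name in the mouse gene tables: Gas5, Snhg1, Snhg3, Snhg5, Snhg6, Snhg8, Snhg12 and Snhg14. All 8 had a row among the 32826 genes listed in at least 1 of the 3 tables, and 7 had enough reads to be tested. The rule that picked them is a list of names and uses no measured value, but the list was drawn up with earlier results of these data known. The cells were mouse embryonic stem cells of the E14 line, grown in serum with leukaemia inhibitory factor and the inhibitors CHIR99021 and PD0325901, and every line was given auxin for 24 hours, the controls included. RNA made during the last 15 minutes was labelled with 4-thiouridine (4sU), a uridine analogue, and purified. The study compared wild-type (WT) cells with mutants of SAGA and ATAC, a pair of histone acetyltransferase complexes that act as coactivators of RNA polymerase II. AID-Tada3 cells (project 1) carry an auxin-inducible degron on a subunit that both complexes share. AID-Yeats2 (project 2) and AID-Zzz3 (project 3) cells carry it on ATAC subunits, and Supt7l-/- cells (project 2) lack a core SAGA subunit. Each mutant was measured in 2 clones, so p-values measure the spread between clones and between WT lines. With so few libraries they also rest on spread shared over all genes. Each project had 2 WT libraries, of which replicate 1 was plain WT and replicate 2 was WT overexpressing Tir1/BirA. The WT replicates are therefore separate lines and differ in that transgene. Titles of the mutant libraries do not state whether the clones carry it. Project 1 also held total RNA of both WT lines, which gives 16 libraries in all.

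A host gene is transcribed by RNA polymerase II and spliced, and the snoRNAs are trimmed out of the removed introns. Box C/D snoRNAs guide ribose methylation of ribosomal RNA, and box H/ACA snoRNAs guide its pseudouridylation. The joined exons of many host genes have no conserved reading frame, and several such RNAs are broken down by nonsense-mediated decay when ribosomes engage them, so the level of a host RNA in total RNA can say little about how often the gene is transcribed. Gas5 was named for its build-up in growth-arrested cells. Snhg14 differs from the others: it is a very long imprinted transcript expressed from the paternal allele, it carries tandem snoRNA clusters, and in neurons it runs antisense to Ube3a, which encodes a ubiquitin ligase.

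The deposited gene positions were the same as those of GENCODE M21 (GRCm38, the mm10 build) for all 8 genes. Gas5 lies at chr1:161034422-161038539 on the plus strand, Snhg1 at chr19:8723475-8726443 on the plus strand and Snhg12 at chr4:132308623-132311024 on the plus strand. The minus strand holds Snhg3 (chr4:132348014-132353686), Snhg5 (chr9:88521050-88522929), Snhg6 (chr1:9941959-9944118), Snhg8 (chr3:123507552-123508404) and Snhg14 (chr7:59307924-59975759). Snhg8 is the shortest of them at 0.85 kb and Snhg14, at 667.84 kb, is the longest. On the same strand and within these spans the annotation places 10 snoRNAs in Gas5, 8 in Snhg1, 2 in Snhg3, 2 in Snhg5, 1 in Snhg6, 1 in Snhg8, 5 in Snhg12 and 208 in Snhg14; these are annotation entries, and a few overlap each other. None of these snoRNAs has a row of its own in the deposited tables, so the values below are those of the host genes. The annotation includes transcripts that keep their introns. Taken over all transcripts, exons cover 100.0% of the span of Snhg1, Snhg8 and Snhg12, 91.31% of Gas5 and 92.02% of Snhg5, against 53.06% of Snhg6 and 3.91% of Snhg14. Reads from unspliced host RNA can therefore count toward most of these genes.

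**Figure D1:**
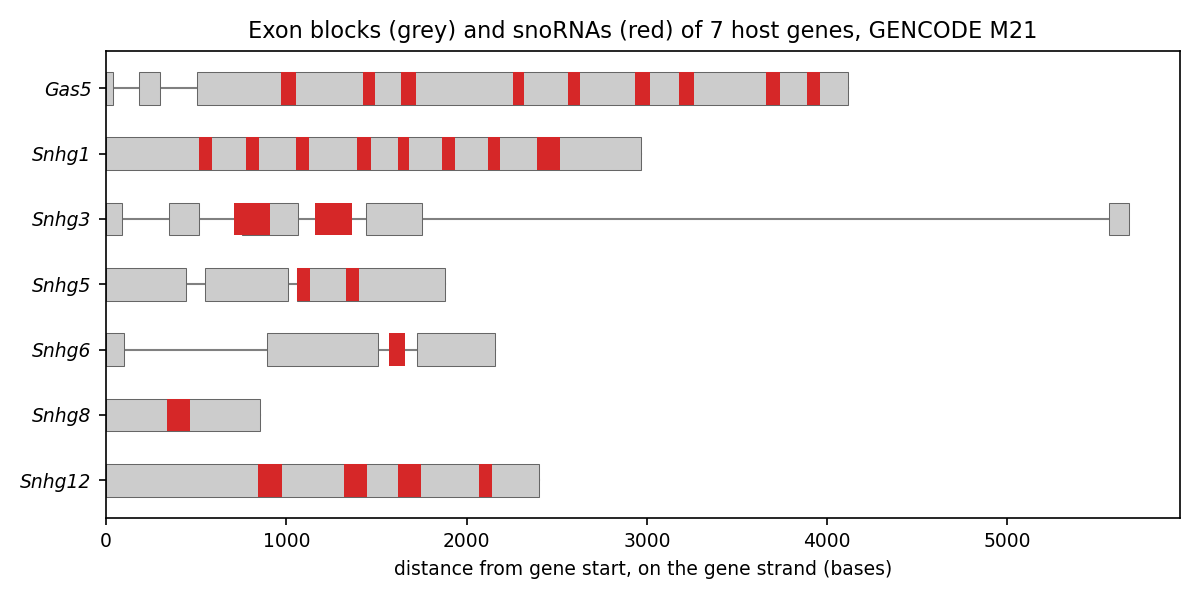
Exon blocks merged over all annotated transcripts (grey) and snoRNAs on the same strand (red) in 7 of the host genes, by distance from the gene start in bases; Snhg14 is left out because its span is 667.84 kb. The snoRNAs overlap the merged exon blocks in Gas5, Snhg1, Snhg5, Snhg8 and Snhg12, and the single snoRNA of Snhg6 lies between blocks.

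One snoRNA is shown for each of 6 hosts, to make plain what the host introns carry. Snord47 lies in Gas5 (chr1:161038082-161038158), Snord22 in Snhg1 (chr19:8725866-8725991), Snord50a in Snhg5 (chr9:88521529-88521600), Snord87 in Snhg6 (chr1:9942463-9942549), Snord99 in Snhg12 (chr4:132310691-132310764) and Snora24 in Snhg8 (chr3:123507937-123508066). The sequences are those of GENCODE M21, 5′ to 3′ on the host's strand. Capitals mark the letters TGATGA (box C) near the 5′ end where present and CTGA (box D) near the 3′ end in the Snord RNAs, and ACA near the 3′ end in Snora24.
Snord47: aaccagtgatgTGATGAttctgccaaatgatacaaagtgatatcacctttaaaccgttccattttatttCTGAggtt
Snord22: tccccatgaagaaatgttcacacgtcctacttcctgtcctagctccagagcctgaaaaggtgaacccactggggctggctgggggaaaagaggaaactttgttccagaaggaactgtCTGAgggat
Snord50a: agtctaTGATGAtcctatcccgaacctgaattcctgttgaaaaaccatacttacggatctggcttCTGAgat
Snord87: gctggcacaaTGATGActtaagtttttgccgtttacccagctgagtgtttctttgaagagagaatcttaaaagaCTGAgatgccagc
Snord99: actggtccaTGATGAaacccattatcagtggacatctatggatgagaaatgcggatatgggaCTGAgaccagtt
Snora24: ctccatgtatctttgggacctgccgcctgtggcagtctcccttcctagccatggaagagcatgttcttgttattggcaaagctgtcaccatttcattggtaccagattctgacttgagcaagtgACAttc

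Promoter sequences of 6 hosts are shown as a description. Whether they bear on how the hosts moved across the libraries (below) was not tested. RefSeq (GRCm38.p6) gives a start for 7 of the 8 genes; Snhg6 has no entry in the table used. Each line runs from 50 bases before the RefSeq start to 20 bases after it, 5′ to 3′ on the gene's strand. The windows are chr1:161035116-161035186 for Gas5 (the second of its 2 RefSeq starts), chr19:8723437-8723507 for Snhg1, chr9:88522877-88522947 for Snhg5, chr3:123508316-123508386 for Snhg8, chr4:132308628-132308698 for Snhg12 and chr7:60450157-60450227 for Snhg14, whose RefSeq start lies outside the span in the deposited tables. Capitals mark the letters TATA lying wholly between 40 and 20 bases before the start, and a C followed by at least 4 bases that are each C or T, within 10 bases of the start. Pyrimidine runs of this kind are known from the starts of ribosomal protein genes and of several snoRNA hosts.
Gas5: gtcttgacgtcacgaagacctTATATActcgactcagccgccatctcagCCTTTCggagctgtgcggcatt
Snhg1: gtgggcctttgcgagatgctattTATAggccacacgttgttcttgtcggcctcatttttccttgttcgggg
Snhg5: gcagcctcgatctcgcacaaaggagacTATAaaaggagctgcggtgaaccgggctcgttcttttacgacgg
Snhg8: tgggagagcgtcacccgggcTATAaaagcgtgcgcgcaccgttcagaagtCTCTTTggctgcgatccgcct
Snhg12: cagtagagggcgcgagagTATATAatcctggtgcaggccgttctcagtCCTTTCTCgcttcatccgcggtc
Snhg14: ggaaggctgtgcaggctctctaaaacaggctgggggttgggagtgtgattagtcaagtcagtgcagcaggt

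The letters TATA, which read the same on both strands, stood in 5 of the 8 windows of the members: this Gas5 start, Snhg1, Snhg5, Snhg8 and Snhg12. They were in 5.49% of all 32851 RefSeq promoters. The pyrimidine run led by C stood on the gene's strand in 4 of the 8 windows (this Gas5 start, Snhg3, Snhg8 and Snhg12) and in 26.52% of all promoters; on the opposite strand the run stood in 29.51% of all promoters. Both motifs together were in 1.5% of all promoters and in those of Gas5, Snhg8 and Snhg12; they do not overlap. The window of the first Gas5 start, which is not printed, held neither. The Snhg14 window, which lies outside the counted span, also held neither. In the Snhg5 line a pyrimidine run led by C begins within 10 bases of the start but ends beyond them, so it was not counted. Both motifs were picked after the sequences had been read, and the matches are descriptions of letters and not of binding.

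The 14 4sU libraries held 8268061 to 15994518 mouse reads in genes and the 2 total RNA libraries 4903998 and 6378707. The embryonic stem cell identity of the libraries was checked on 8 markers, of which 7 had a row; in project 2 their summed level ran from 2746 to 2896 CPM (counts scaled to the depth of the library) in WT and from 2409 to 2955 in the mutants, with Zfp42 and Tfcp2l1 lower in Supt7l-/- (log2 difference -0.25 and -0.24, edgeR adjusted p = 0.0431 and 0.0429). The summed trophectoderm, primitive endoderm and fibroblast markers of each list stayed at or below 15.4 CPM in every 4sU library, and the neural markers at or below 27.8. RNA of the tagged genes does not report loss of the protein; WT libraries had 31.3 and 23.9 CPM of Tada3 RNA and the degron clones 12.2 and 10.5, Yeats2 RNA went from 242 and 256 CPM to 109 and 188, and Zzz3 RNA from 430 and 448 to 288 and 300. Supt7l RNA measured 8.87 and 14.1 CPM in the knockout clones and 13.9 and 14.3 in WT, so clone 2 was within the WT range; which part of the gene was deleted is not given in the sources used here. In bulk RNA, fewer cells and less RNA per cell cannot be told apart.

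Gas5 was the most abundant host in WT 4sU RNA per kb of median annotated transcript. That length is much shorter than the merged exons, to which unspliced reads can also count. It is 629 against 3760 bases for Gas5 and 770 against 26093 for Snhg14. Levels per merged exon length were not compared, so the order below holds for the median transcript length only. In project 1 its 2 WT libraries stood at 570 and 628 CPM per kb of median transcript. Snhg1 followed at 466 and 512 CPM per kb, below both Gas5 libraries. Next came Snhg5 at 181 and 211 CPM per kb and Snhg6 at 153 and 184 CPM per kb, whose ranges overlapped. Snhg12 stood at 76.8 and 86.4 CPM per kb. Snhg14 (70.7 and 57.1) and Snhg8 (55.0 and 64.3) were lowest and overlapped each other. The order from Gas5 to Snhg6 was the same in projects 2 and 3. Snhg14 stood above Snhg12 and Snhg8 there, at 76.3 and 66.1 CPM per kb in project 2 against 41.3 and 56.7 for Snhg12. Gas5 and Snhg1 overlapped in project 2, where Gas5 gave 385 and 509 CPM per kb and Snhg1 gave 384 and 469. Snhg3 was close to absent from the counts: it had 1 read in each WT library of project 2, 0 in the 4 mutant libraries of that project, and no row in the other tables, so it entered no test. Snhg3 shares 135 exon bases with Rcc1 on the same strand and 705 with Gm17300 on the opposite strand, and what became of reads in such shared bases is not given in the sources used here.

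In AID-Yeats2 cells, 6 of the 7 tested host genes had lower 4sU levels than in WT by the estimate and 4 of them passed the test: Snhg1, Snhg12, Snhg8 and Snhg5. The threshold was an edgeR quasi-likelihood test with Benjamini-Hochberg adjusted p under 0.05 over 14513 genes, by which 7.24% of all tested genes were called, 3.32% lower and 3.92% higher. Snhg14 alone went the other way in this scaling, which turns when the libraries are scaled to the yeast spike-in (below). Snhg1 stood at 231 and 283 CPM in WT and at 177 and 199 in the clones. The groups did not overlap, and the log2 difference was -0.45 ± 0.09 (SE, n = 2 against 2, edgeR adjusted p = 0.0131).

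Snhg8, the host of Snora24, gave 14.9 and 25.3 CPM in WT and 11.6 and 10.7 CPM in AID-Yeats2 cells, from 105 to 237 reads. Both clones lay below both WT libraries, with a log2 difference of -0.85 ± 0.22 (SE, edgeR adjusted p = 0.0465). As a share of the WT mean this was 57.5% in clone 1 and 53.0% in clone 2. Snhg12, which carries mostly box H/ACA snoRNAs, gave 37.8 and 51.9 CPM in WT and 25.5 and 32.2 CPM in the clones. Again there was no overlap, and the log2 difference was -0.63 ± 0.16 (SE, edgeR adjusted p = 0.0327). Snhg5, the host of the Snord50 pair, gave 85.7 and 122 CPM in WT and 63.7 and 70.2 CPM in the clones, without overlap (log2 difference -0.63 ± 0.15 SE, edgeR adjusted p = 0.0487).

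Gas5 did not pass the test, although its groups did not overlap: WT libraries had 242 and 320 CPM and the clones 188 and 212, a log2 difference of -0.49 ± 0.13 (SE, edgeR adjusted p = 0.0599). Snhg6 gave 48.2 and 68.2 CPM in WT and 39.9 and 50.7 CPM in the clones, which overlapped (log2 difference -0.36 ± 0.18 SE, edgeR adjusted p = 0.322). Snhg14 gave 58.8 and 50.9 CPM in WT and 71.0 and 66.2 CPM in the clones. Both clones lay above both WT libraries, as they did for 25.3% of all tested genes, and the difference of 0.32 ± 0.10 (SE) missed the threshold (edgeR adjusted p = 0.0568). Over the 7 genes the median log2 difference was -0.49, beside -0.00 over all genes tested. Of all tested genes, 25.8% had both clones below both WT libraries; 5 of the 7 hosts did.

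The AID-Yeats2 calls rest on few libraries. Without clone 1, no host passed the edgeR threshold, which 1.47% of all genes then did; without clone 2, Snhg1 and Snhg12 passed beside 2.56% of all genes. Without WT replicate 1 all 7 passed, 6 lower and Snhg14 higher, beside 14.1% of all genes. Without WT replicate 2 the number was 4, with Gas5 in and Snhg8 out, beside 12.9% of all genes. The sizes shrank in that last setting: the median of the 7 was -0.30, Snhg8 was at -0.42, Gas5 at -0.27, Snhg5 at -0.35, Snhg1 at -0.30, Snhg12 at -0.39 and Snhg6 at -0.09. A joint fit of the 14 4sU libraries called none of the 7.

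**Figure D2:**
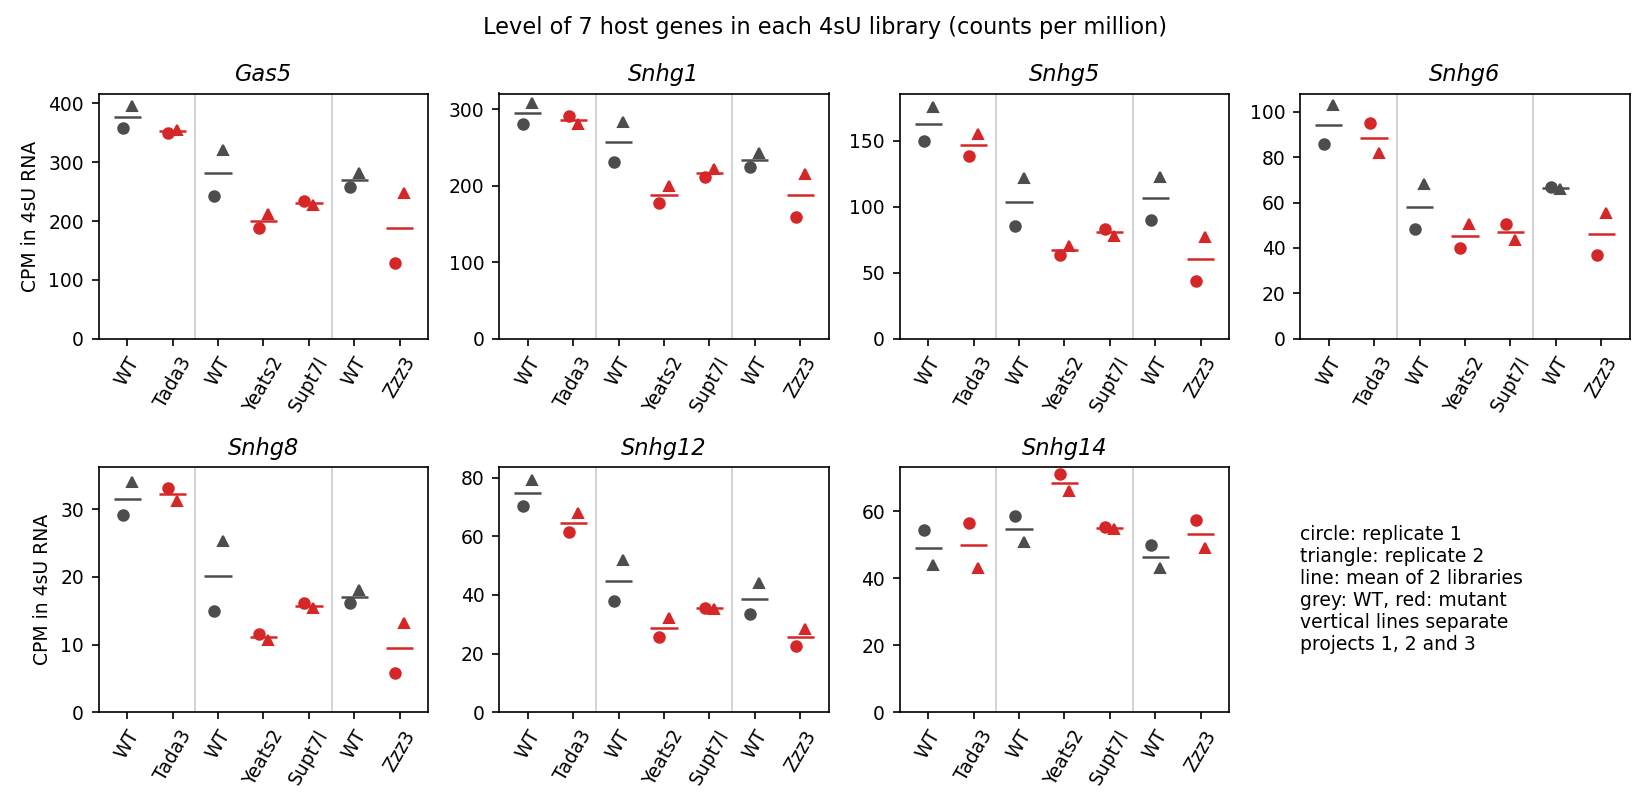
CPM of 7 host genes in each of the 14 4sU libraries, by group; circles are replicate 1 (plain WT or clone 1), triangles replicate 2 (WT with Tir1/BirA or clone 2), horizontal lines the mean of 2 libraries, and each project was scaled on its own. In project 2 both AID-Yeats2 clones lie below both WT libraries for Gas5, Snhg1, Snhg5, Snhg8 and Snhg12, and in project 3 AID-Zzz3 clone 1 lies below clone 2 for every gene but Snhg14.

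Supt7l-/- cells were compared with the same 2 WT libraries as AID-Yeats2 cells, so the comparisons are not independent. No host passed the edgeR threshold, by which 3.33% of all tested genes were called, 2.02% lower and 1.32% higher. At an unadjusted p under 0.05 Snhg1 and Snhg5 were lower, and DESeq2 also called none. Many other genes passed that mark: Snhg1 and Snhg5 (edgeR unadjusted p = 0.0209 and 0.0446) ranked 1709 and 2494 by p among the 14513 genes tested. The 6 hosts other than Snhg14 had log2 differences between -0.36 and -0.25, and the median of the 7 was -0.30. Gas5 gave 234 and 227 CPM in the clones against 242 and 320 in WT (log2 difference -0.29 ± 0.13 SE, edgeR adjusted p = 0.279). The clones lay below both WT libraries, but close to WT replicate 1. Snhg8 gave 16.2 and 15.4 CPM in the clones, between its 2 WT values (log2 difference -0.34 ± 0.22 SE, edgeR adjusted p = 0.439). Snhg14 gave 55.3 and 54.8 CPM, also between the WT values (log2 difference 0.01 ± 0.10 SE). For Gas5, Snhg1, Snhg5 and Snhg12 both clones lay below both WT libraries, as did 24.4% of all tested genes. This comparison turned on which WT line was used: without WT replicate 1, 6 hosts were called lower and their median with Snhg14 was -0.54, while calls over all genes rose to 17.4%. Without WT replicate 2 none was called, the median was -0.09, and 4.32% of all genes were called.

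In AID-Zzz3 cells the 6 hosts other than Snhg14 had lower estimates than in WT, and none of the 7 passed the edgeR threshold, by which 0.984% of all tested genes were called, 0.303% lower and 0.681% higher. DESeq2 called none either, and at an unadjusted p under 0.05 Snhg5, Snhg6, Snhg8 and Snhg12 were lower. Many other genes passed that mark: Snhg5, with the largest p of these hosts (edgeR unadjusted p = 0.0457), ranked 1751 by p among the 14529 genes tested. The median log2 difference of the 7 was -0.51, beside 0.00 over all tested genes. Snhg12 had the smallest p of the 7: 33.5 and 44.1 CPM in WT and 22.5 and 28.5 CPM in the clones (log2 difference -0.59 ± 0.18 SE, edgeR adjusted p = 0.220). Snhg5 gave 90.3 and 123 CPM in WT and 43.9 and 77.5 CPM in the clones (log2 difference -0.80 ± 0.30 SE, edgeR adjusted p = 0.378). For all 6 of these genes both clones lay below both WT libraries, as did 21.9% of all tested genes; 22.8% had both clones above. Snhg14 overlapped, at 57.5 and 49.0 CPM against 49.9 and 43.1 (log2 difference 0.19 ± 0.13 SE).

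The AID-Zzz3 clones lay further apart than the AID-Yeats2 or Supt7l-/- clones for Gas5, Snhg1, Snhg5, Snhg6 and Snhg8, by their values and with no test. Gas5 gave 128 CPM in clone 1 and 248 in clone 2, against 258 and 281 in WT, which puts the clones at 47.7% and 92.0% of the WT mean. Snhg8 gave 5.86 and 13.2 CPM against 16.1 and 18.0 in WT; clone 1 rested on 49 reads. Snhg1 gave 159 and 215 CPM against 225 and 243, and Snhg6 gave 37.1 and 55.6 CPM against 66.7 and 66.1. In each case clone 1 was the lower. Over all genes the median absolute log2 difference between the clones was 0.18, no larger than the 0.20 between the WT lines of that project. Clone 1 had 8268061 mouse reads and clone 2 had 13003804; Zzz3 RNA (above) and the 4sU RNA per spike-in read (10.5 and 10.6) were close in both. Whether depth had a part in the gap was not tested. Without clone 1 no host passed, the median log2 difference of the 7 was -0.26, and 0.0918% of all genes were called. Without clone 2 only Gas5 passed, with a median of -0.84, beside 0.432% of all genes. Without WT replicate 1, only Snhg12 passed, beside 1.4% of all genes.

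In AID-Tada3 cells none of the 7 hosts passed the edgeR threshold, by which 0.0331% of all 15099 tested genes were called, all lower. None had an unadjusted p under 0.05, and DESeq2 called none. Log2 differences ran from -0.21 for Snhg12 to 0.03 for Snhg8, with a median of -0.09. Gas5 gave 350 and 355 CPM in the clones against 359 and 395 in WT (log2 difference -0.10 ± 0.09 SE, edgeR adjusted p = 0.826). Snhg12 gave 61.4 and 67.8 CPM against 70.3 and 79.1 (log2 difference -0.21 ± 0.10 SE, edgeR adjusted p = 0.629). The clones lay below both WT libraries for these 2 genes only, beside 20.3% of all tested genes, and above both for none, beside 19.3%. Snhg14 gave 56.6 and 43.1 CPM against 54.5 and 44.0, and the values overlapped.

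The size of the change was set between mutants directly. In project 2, Snhg14 differed between AID-Yeats2 and Supt7l-/- cells (71.0 and 66.2 CPM against 55.3 and 54.8) by a log2 value of 0.32 ± 0.10 (SE, edgeR adjusted p = 0.0365), while 16.3% of all genes passed the same test. The difference was not called with spike-in scaling, in the joint fit or without any 1 of the 4 mutant clones. The other 6 hosts had lower estimates in AID-Yeats2 than in Supt7l-/- and none passed. Snhg8 differed by -0.50, with a 95% interval from -0.96 to -0.05 (edgeR unadjusted p = 0.0524, edgeR adjusted p = 0.171). All intervals given here treat the SE as known, so they can leave out 0 where the unadjusted p is above 0.05. Gas5 differed by -0.20, with an interval from -0.45 to 0.04. Snhg6 differed by -0.06, with an interval from -0.43 to 0.31. In a joint fit of all 4 mutants against their own WT libraries, no host passed in any of the 6 pairs of mutants. Of all 15426 genes in that fit, 10.3% differed between AID-Yeats2 and Supt7l-/-, 0% between AID-Yeats2 and AID-Zzz3, and 1.24% between Supt7l-/- and AID-Zzz3. AID-Tada3 differed in 1.43% of genes from AID-Yeats2, 0.0194% from Supt7l-/- and 1.04% from AID-Zzz3. In that fit the Snhg1 estimate was lowered less in AID-Tada3 than in AID-Yeats2 cells. The difference was 0.41, with an interval from 0.06 to 0.76 (edgeR unadjusted p = 0.0361, edgeR adjusted p = 0.308). Snhg8 differed by 0.88 in the same pair, with an interval from 0.09 to 1.68 (edgeR unadjusted p = 0.0533, edgeR adjusted p = 0.360). Between AID-Tada3 and AID-Zzz3 it differed by 0.82, with an interval from 0.02 to 1.62 (edgeR unadjusted p = 0.0695, edgeR adjusted p = 0.447).

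The values above are shares of the mouse reads in a library. The spike-in, labelled RNA of Drosophila cells (project 1) or of the yeast S. pombe (projects 2 and 3), lets a level be set against an added reference in place of the other mouse genes. Mouse 4sU reads per spike-in read stood at 89.6% of WT in AID-Tada3 cells, 71.0% in AID-Yeats2 cells, 78.0% in Supt7l-/- cells and 77.7% in AID-Zzz3 cells. With 2 libraries against 2, an exact two-sided permutation test cannot go below p = 0.33, and gave 0.67 for AID-Tada3 and 0.33 for the other mutants. On this scale the median log2 difference of all genes was -0.16, -0.50, -0.36 and -0.36 in that order, beside a median over the 7 hosts of -0.25, -0.98, -0.68 and -0.87.

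Scaled to the spike-in, 6 of the 7 hosts passed the edgeR threshold as lower in AID-Yeats2 cells, while 23.5% of all genes did. Snhg8 stood at 39.2% of WT (log2 difference -1.35 ± 0.27 SE, edgeR adjusted p = 0.000123), Snhg5 at 46.0%, Snhg12 at 46.1%, Gas5 at 50.7%, Snhg1 at 52.2% and Snhg6 at 55.7%. Snhg14 stood at 88.6% (log2 difference -0.17 ± 0.23 SE, edgeR adjusted p = 0.555), so the sign of its difference turned with the scaling. In AID-Zzz3 cells 5 hosts passed as lower, while 24.7% of all genes did: Snhg8 at 44.8% of WT, Snhg5 at 44.9%, Snhg12 at 51.8%, Snhg6 at 54.7% and Snhg1 at 62.5%. Gas5 stood at 54.6% (log2 difference -0.87 ± 0.32 SE, edgeR adjusted p = 0.114). In Supt7l-/- cells only Snhg5 passed, at 60.4% of WT (edgeR adjusted p = 0.0395), while 4.45% of all genes did; in AID-Tada3 cells no host passed, while 1.48% of all genes were lower.

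**Figure D3:**
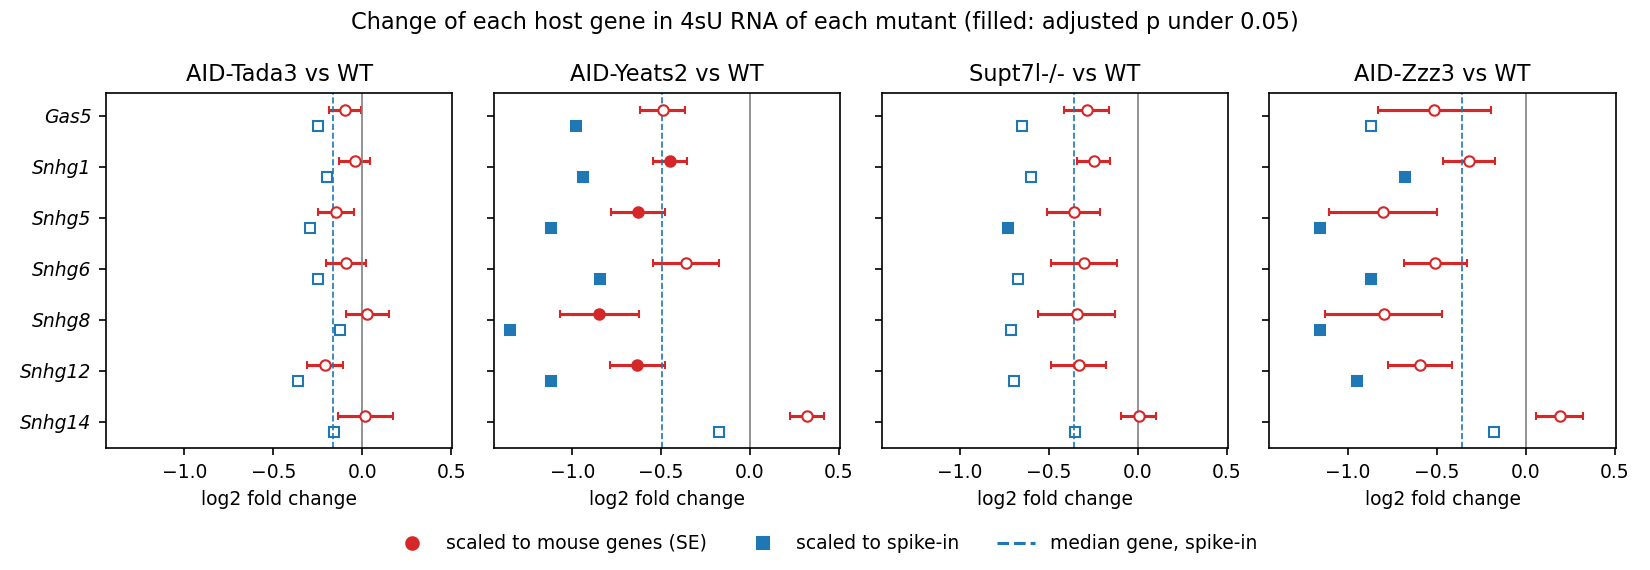
Log2 fold change of 7 host genes in the 4sU RNA of each mutant against its own WT libraries: red circles with SE bars are scaled to mouse genes, blue squares to the spike-in, filled symbols have an edgeR adjusted p under 0.05, and the dashed line is the median of all genes on the spike-in scale. In AID-Yeats2 cells the 4 filled circles are Snhg1, Snhg5, Snhg8 and Snhg12 and 6 squares are filled; Snhg14 lies above 0 when scaled to mouse genes (0.32) and below it when scaled to the spike-in (-0.17).

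The authors' deposited table lists 6 hosts, all but Snhg14 and Snhg3, as lower in AID-Yeats2 cells, from log2 -0.73 (Snhg6) to -1.09 (Snhg8), where it lists 48.9% of all genes with an adjusted p as lower. In the authors' deposited table for AID-Zzz3 the same 6 were lower, from -0.61 (Snhg1) to -0.97 (Snhg5), beside 35.7% of all genes. For Supt7l-/- the authors' deposited table lists Gas5 (-0.59) and Snhg5 (-0.65) as lower beside 8.86% of genes, and for AID-Tada3 none of the hosts beside 0.0559%. Snhg14 was not called in the authors' deposited table for any mutant. Its authors' value in AID-Yeats2 cells was -0.16, beside 0.32 scaled to mouse genes and -0.17 scaled to the spike-in. For that mutant the authors' deposited table calls 4641 genes lower and 35 higher. The authors' values are thus not on the scale of the main fits, and are no second test of their calls.

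The plain and the Tir1/BirA WT lines also differed, and the hosts split in the same way there. Gas5, Snhg1, Snhg5, Snhg8 and Snhg12 were higher in the Tir1/BirA line in all 3 projects, while 17.8% of all genes were. For Gas5 the log2 difference was 0.14, 0.40 and 0.12 in projects 1, 2 and 3, and for Snhg5 it was 0.22, 0.50 and 0.44. Snhg8 gave 0.23, 0.77 and 0.16. Snhg6 was higher by 0.26 and 0.50 in projects 1 and 2 and differed by -0.01 in project 3. Snhg14 was lower in the Tir1/BirA line in all 3 projects, by -0.31, -0.21 and -0.21, as were 17.8% of all genes. Each of these values is 1 library against 1. The gap was widest in project 2 for Gas5, Snhg1, Snhg5, Snhg6, Snhg8 and Snhg12.

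Newly made and total RNA were compared in the WT lines of project 1, scaled together. Gas5 gave 367 and 411 CPM in 4sU RNA and 186 and 295 in total RNA; the groups did not overlap, and the log2 difference was 0.69 ± 0.22 (SE, edgeR adjusted p = 0.0274). Snhg1 gave 288 and 321 CPM in 4sU RNA and 175 and 220 in total RNA (log2 difference 0.62 ± 0.16 SE, edgeR adjusted p = 0.0120). Snhg14 gave 55.8 and 45.7 CPM in 4sU RNA and 36.0 and 33.6 in total RNA (log2 difference 0.55 ± 0.17 SE, edgeR adjusted p = 0.0238). These 3 hosts were higher in 4sU RNA by this test. Snhg14 was not called with DESeq2 (adjusted p = 0.0608) or without WT 4sU replicate 1 (0.44, edgeR adjusted p = 0.177), and Snhg1 was not called without WT 4sU replicate 2 (0.58, edgeR adjusted p = 0.0611). Of all 14494 genes tested, 63.4% were called, 30.4% higher and 33% lower; both 4sU libraries lay above both total RNA libraries for 41.7% of genes and below them for 41.1%.

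Snhg5 and Snhg6 were also above total RNA in both lines without passing the test. Snhg5 gave 154 and 182 CPM in 4sU RNA and 79.6 and 142 in total RNA (log2 difference 0.60 ± 0.26 SE, edgeR adjusted p = 0.0816), and Snhg6 gave 87.8 and 107 CPM against 49.4 and 81.1 (log2 difference 0.57 ± 0.24 SE, edgeR adjusted p = 0.0711). The same lines gave both kinds of RNA. With the line as a block 5 hosts passed, while 36.5% of all genes were higher. Snhg5 (0.64 ± 0.13 SE, edgeR adjusted p = 3.21e-06) and Snhg6 (0.60 ± 0.14 SE, edgeR adjusted p = 2.66e-05) were among them. With only 2 lines, this SE and p rest largely on spread shared over all genes, and not on how far these lines differ. The SE was 0.13 for Gas5 and Snhg1 too, and the gap between 4sU and total RNA was wider in the plain line for Snhg5 and Snhg6.

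Snhg8 and Snhg12 did not stand higher in newly made RNA. Snhg8 gave 29.8 and 35.3 CPM in 4sU RNA and 24.9 and 34.8 in total RNA (log2 difference 0.12 ± 0.21 SE, edgeR adjusted p = 0.634), and Snhg12 gave 72.1 and 82.2 CPM against 73.7 and 99.1 (log2 difference -0.17 ± 0.18 SE, edgeR adjusted p = 0.445). Their ranges overlapped, and the sign of either value turned when 1 total RNA library was left out. The median over the 7 hosts was 0.57, beside 0.05 over all tested genes. The median was -1.79 over the 1896 tested genes with a span under 5 kb, a span that 6 of the 7 hosts also have. Over the 5031 tested genes in a band of median transcript length that holds all 7 hosts, the median was -0.34. Total RNA was depleted of ribosomal RNA before library preparation and 4sU RNA was not, so the way the libraries were made also differed between the groups; its part in these values was not tested. Without total RNA replicate 1, Gas5 and Snhg1 no longer passed (0.33 and 0.40, edgeR adjusted p = 0.0969 and 0.0501), Snhg14 still did, and Snhg12 was called lower at -0.43 (edgeR adjusted p = 0.0323). Snhg5 and Snhg6 were then at 0.17 and 0.19 (edgeR adjusted p = 0.373 and 0.336), and the median of the 7 was 0.19. Without total RNA replicate 2, Gas5 (1.03), Snhg1 (0.76), Snhg5 (1.05) and Snhg6 (0.94) passed and Snhg14 did not.

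**Figure D4:**
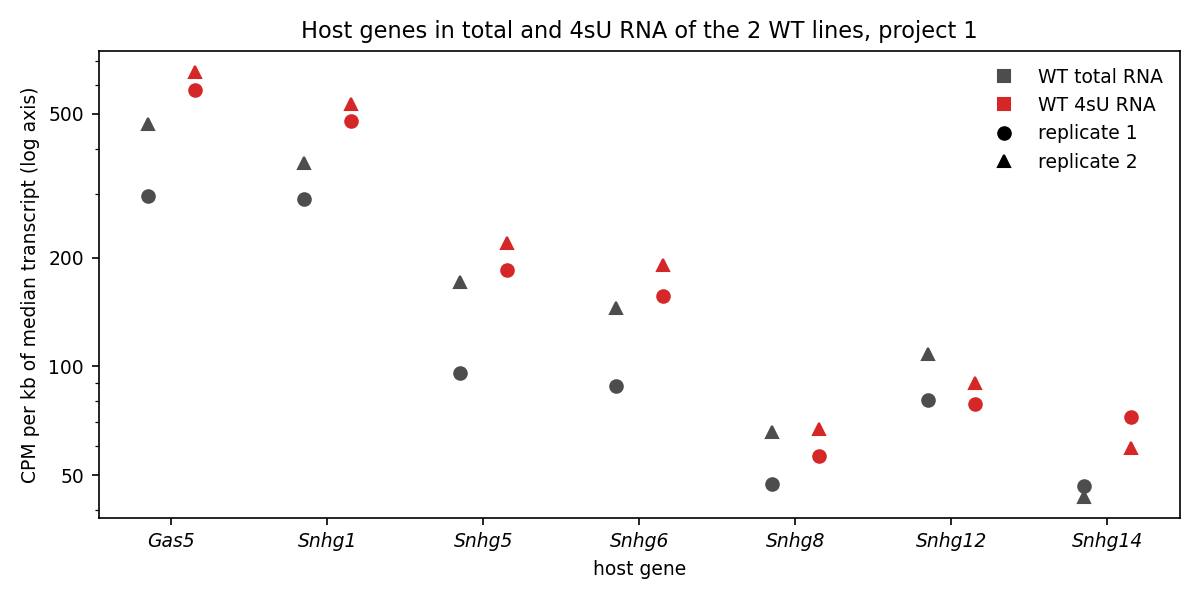
CPM per kb of median transcript of 7 host genes in total RNA (grey) and 4sU RNA (red) of the plain WT line (circles) and the Tir1/BirA WT line (triangles) of project 1, on a log axis. Gas5, Snhg1, Snhg5, Snhg6 and Snhg14 lie higher in 4sU RNA in both lines, and Snhg8 and Snhg12 overlap between the kinds of RNA.

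Snhg14 overlaps Ube3a on the opposite strand, with 1803 of its 26093 exon bases shared. The library kit keeps strand, but whether the authors' counting used it is not given in the sources used here, so reads of one gene counted toward the other cannot be told apart. In AID-Yeats2 cells Ube3a fell from a mean of 504 CPM to 410 (log2 difference -0.30 ± 0.06 SE, edgeR adjusted p = 0.0129), where Snhg14 had a difference of 0.32. In AID-Zzz3 cells Ube3a had a log2 difference of -0.29 (edgeR adjusted p = 0.362) and in Supt7l-/- cells of -0.01. In WT it was higher in 4sU than in total RNA (0.93 ± 0.15 SE, edgeR adjusted p = 0.00126), the same direction as Snhg14. Snhg6 shares 127 exon bases with Mcmdc2 on the opposite strand, whose level was at most 4.66 CPM as a group mean in every comparison.

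Protein-coding genes that start beside a host, on the opposite strand and within 5 kb, were found for 2 hosts. Zbtb37, a zinc finger gene, starts 427 bases from Gas5, and Slc3a2, the heavy chain of an amino acid transporter, starts 106 bases from Snhg1. In AID-Yeats2 cells Zbtb37 stood at 53.4 and 61.1 CPM against 60.9 and 61.2 in WT (log2 difference -0.09 ± 0.10 SE, edgeR adjusted p = 0.633). Slc3a2 stood at 89.0 and 108 CPM against 106 and 118 (log2 difference -0.19 ± 0.09 SE, edgeR adjusted p = 0.274). Neither neighbour was called in any mutant, and whether each differed from its host was not tested.

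Across the 14 4sU libraries, each scaled within its project, the hosts other than Snhg14 went up and down together. Pearson's r of their log2 levels, centred on the WT mean of each project, ranged from 0.86 to 0.96 over the 15 pairs. Pairs with Snhg14 ranged from -0.82 to -0.61. These are descriptions over libraries that share projects, WT lines and scaling. Centring makes the WT libraries of a project mirror each other, so the 14 libraries are not 14 separate observations. How often other pairs of genes reach such r was not computed. The mean of all tested hosts, Snhg14 included, was set against 13788 other genes in the same way. The 5 that followed it most closely were Rabggtb (r = 0.974), 2410006H16Rik (0.966), Rplp2 (0.965), Ipo7 (0.953) and Aimp1 (0.952). Rabggtb encodes the beta subunit of a Rab prenyltransferase, and Rplp2 an acidic ribosomal stalk protein. Ipo7 encodes a nuclear import receptor, and Aimp1 a scaffold of the aminoacyl-tRNA synthetase complex. Rabggtb and 2410006H16Rik are themselves on the lists of snoRNA hosts used next.

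Of 18 other non-coding snoRNA hosts looked for, 12 were tested in AID-Yeats2 cells and 4 were lower (background 3.32%), with a median of -0.38. Snhg17 stood at 44.7 and 55.9 CPM against 99.9 and 122 in WT, a log2 difference of -1.14 ± 0.12 (SE, edgeR adjusted p = 0.000184). The others were 1110038B12Rik (-0.70), Epb41l4aos (-0.54) and 2410006H16Rik (-0.44). Of 42 protein-coding snoRNA hosts, the count of lower genes was 17 and that of higher genes 0 (median -0.27). Those with the smallest p were Sf3b3 (-0.77), a splicing factor subunit, Rack1 (-0.84), a ribosome-associated scaffold, and the ribosomal protein genes Rpl32 (-0.74) and Rpl17 (-0.78). In AID-Zzz3 cells 1 of the 12 non-coding hosts was called lower (background 0.303%), again Snhg17 (-0.90 ± 0.11 SE, edgeR adjusted p = 0.0192). So were 3 of the 42 protein-coding hosts: Sf3b3 (-0.75), Rack1 (-0.74) and Rps3 (-0.72). The medians there were -0.48 for the non-coding and -0.31 for the protein-coding hosts, with 9 of the 12 and 37 of the 42 estimates below 0. In Supt7l-/- cells none of either list was called lower and 1 was called higher, Tpt1 (0.55, edgeR adjusted p = 0.0109, background 1.32%). Most estimates were below 0 there too, 8 of the 12 non-coding hosts (median -0.15) and 39 of the 42 protein-coding hosts (median -0.12). Tpt1, picked out after its values were seen, was among the lower genes in AID-Yeats2 cells (-0.54). No host of either list was called in AID-Tada3 cells.

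The proteins that bind and mature snoRNAs, and those of nonsense-mediated decay, were read in the same fits. Of 8 tested genes of the snoRNP core, 2 were lower in AID-Yeats2 cells (background 3.32%): Fbl, the methyltransferase of box C/D particles (-0.49 ± 0.11 SE, edgeR adjusted p = 0.0138), and Nop56, their scaffold and itself a snoRNA host on the list above (-0.35 ± 0.09 SE, edgeR adjusted p = 0.0258), with a median of -0.07 over the 8. None of the 8 was called in the other mutants. None of the 10 assembly factors was called in any mutant. Of the 10 nonsense-mediated decay factors, Upf2 was higher in AID-Yeats2 cells (0.32, edgeR adjusted p = 0.0227, background 3.92%) and in Supt7l-/- cells (0.42, edgeR adjusted p = 0.00782, background 1.32%), and no other was called in any mutant.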

How the data were processed

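RNA sequencing gave 16 libraries in 3 sequencing projects. Per the submitters' processing notes, the tools included STAR 2.5.3a and Bowtie2 2.2.8, DESeq2 1.16.1, HTSeq 0.6.1p1 and cutadapt 1.10, and mm10 is the mouse build they name; their roles and options, and whether counting used strand, are not given in the sources used here. Per the file headers, the authors' deposited tables hold raw counts per gene, which were used for every test. The spike-in tables the authors deposited hold counts too (Drosophila in project 1, S. pombe in projects 2 and 3). Size-factor normalized signal columns that the authors deposited beside the counts were not used. The authors' log2 fold changes and adjusted p-values were read only where the text names the authors' deposited table.

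Each project was fitted on its own with edgeR 4.0.16 (R 4.3.3, quasi-likelihood, robust, TMM factors from mouse genes, filterByExpr with a minimum count of 10), project 2 with its 3 groups in 1 fit. Levels are CPM after TMM scaling, and the SE is the log2 difference divided by the square root of F. Spike-in scaling used TMM factors of the spike-in genes (minimum 10 counts per 4sU library). The log2 CPM for likeness used a prior count of 2 and genes with a mean of at least 1 CPM. It was centred on the WT mean of its own project. The fits were tested on simulated data. DESeq2 1.42.0, other scalings and filters and leaving out each library were alternatives.

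Replicates are separate clones or lines. Total and 4sU RNA of project 1 came from the same lines by their titles; the line differences correlated at r = 0.457 across 14494 genes. The named genes are all members, at most 4 genes per list and comparison by smallest p below the threshold, opposite-strand neighbours within 5 kb, the 5 closest genes, and genes that share exon bases. The last, and the promoter motifs, were chosen after values or sequences were seen. Members and lists were chosen with earlier results of these data known.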

Additional observations from a re-analysis of the deposited data

Results flagged for a closer look

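Snhg14 differed between AID-Yeats2 and Supt7l-/- cells in the fit of project 2 by a log2 value of 0.32 (SE 0.10, edgeR adjusted p = 0.0365), a test of the difference between the 2 mutants themselves. Both AID-Yeats2 clones (71.0 and 66.2 CPM) lay above both Supt7l-/- clones (55.3 and 54.8 CPM), and 16.3% of all genes passed the same test. The difference was 0.18 with spike-in scaling (edgeR adjusted p = 0.755) and 0.31 in the joint fit (edgeR adjusted p = 0.177), and ranged from 0.27 to 0.37 without 1 of the 4 clones, where the adjusted p ranged from 0.101 to 0.271.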

How the results depend on the processing

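The members called lower in AID-Yeats2 cells numbered 4, against 6 with spike-in scaling, 5 with DESeq2, 3 with DESeq2 size factors, 7 without a filter on low counts (6 lower, Snhg14 higher), 3 with a minimum of 50 counts per library (2 lower, Snhg14 higher) and 0 in the joint fit; leaving out 1 library gave 0 to 7. For Supt7l-/- the count of 0 became 1 with spike-in scaling and 3 without a filter, and 0 to 6 without 1 library. For AID-Zzz3 it became 5 with spike-in scaling and 4 without a filter, and 0 to 1 without 1 library. For AID-Tada3 it was 0 under every alternative run. In 4sU against total RNA the count of 3 became 5 with the replicate block by WT line and 5 without a filter, and 2 to 4 without 1 library. The 1 member called between AID-Yeats2 and Supt7l-/- became 0 with spike-in scaling, 0 in the joint fit and 0 to 0 without 1 clone (both of these added after seeing the data); the joint fit of differences between mutants had 0 and became 2 with spike-in scaling. Of all genes, the share called was 0.0331% for AID-Tada3 and became 1.66% with spike-in scaling, 0.0713% in the joint fit, 0.237% with DESeq2 and 1.38% without a filter; for AID-Yeats2 7.24% became 23.9% with spike-in scaling (23.5% lower) and 3.68% in the joint fit; for Supt7l-/- 3.33% became 0.629% in the joint fit; for AID-Zzz3 0.984% became 25.6% with spike-in scaling (24.7% lower), 3.78% in the joint fit, 2.13% with DESeq2 and 2.81% without a filter; for 4sU against total RNA 63.4% became 38% without a filter. Leaving out 1 library moved that share to 0% (without either AID-Tada3 clone) to 12.9% (without WT replicate 2) for AID-Tada3, 1.47% (without clone 1) to 14.1% (without WT replicate 1) for AID-Yeats2, 0.263% (without clone 1) to 17.4% (without WT replicate 1) for Supt7l-/-, 0.0918% (without clone 1) to 2.99% (without WT replicate 2) for AID-Zzz3 and 53.2% to 57.4% for 4sU against total RNA.

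The sign turned with spike-in scaling for Snhg8 (-0.12) and Snhg14 (-0.16) in AID-Tada3 cells and for Snhg14 in AID-Yeats2 (-0.17), Supt7l-/- (-0.35) and AID-Zzz3 cells (-0.18), and with DESeq2 for Snhg14 in Supt7l-/- cells (-0.0016); by construction spike-in scaling moves the median gene. The cause of the other changes was not tested. Leaving out 1 library gave these ranges where a sign turned: in AID-Tada3 cells Snhg1 -0.11 to 0.0367, Snhg6 -0.22 to 0.0555, Snhg8 -0.0806 to 0.16 and Snhg14 -0.18 to 0.21; in Supt7l-/- cells Snhg8 -0.69 to 0.084 and Snhg14 -0.0916 to 0.11; in 4sU against total RNA Snhg8 -0.17 to 0.35 and Snhg12 -0.43 to 0.0314; between AID-Yeats2 and Supt7l-/- Snhg6 -0.24 to 0.11. The log2 amount of 4sU RNA per spike-in read ranged from -0.26 to -0.06 in AID-Tada3, -0.62 to -0.37 in AID-Yeats2, -0.55 to -0.19 in Supt7l-/- and -0.43 to -0.30 in AID-Zzz3 cells. No paired analysis was possible for the mutants because clone numbers name clones and have no counterpart among the WT lines. Depth was lowest for Snhg8, with 49 to 237 reads a library in projects 2 and 3, and each group had 2 libraries.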
